A study of Homo sapiens with 12 samples.

Results

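Cystine deprivation of HCT116 cells was compared between 24 h and 48 h, gene by gene, as the deprivation effect at 48 h minus the effect at 24 h. This difference of differences, called the interaction here, was tested on all 12 samples of the series for 16994 of the 60671 named genes, those with enough counts. HCT116 is an established human colorectal carcinoma line, labelled wild type. The 4 groups, each of 3 samples, were control cells kept in full DMEM for 24 h or 48 h and cells given DMEM with 0 mM cystine for 24 h or 48 h, all with 10% fetal bovine serum and antibiotics. A wash and fresh medium are described for the deprived cells alone, so that step and the lack of cystine cannot be told apart. Whether replicates were separate cultures is not stated, so p-values reflect sample-to-sample spread alone, and that spread may be technical.

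Cystine is the oxidised dimer of cysteine and enters cells through the antiporter formed by SLC7A11 and SLC3A2. Cysteine is needed for glutathione, for iron-sulfur clusters and for translation. Its shortage is known to engage the amino acid response through ATF4 and the antioxidant response through NRF2, and, where lipid peroxides accumulate, the iron-dependent form of cell death called ferroptosis. A response measured at a single time cannot show which of these programmes is still building, which is a pulse and which has turned round.

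Total estimated counts lay between 19146108 and 24179533 per sample. On the first principal component, which held 60.5% of the variance, the control samples lay at -54.9 to -47.0, the deprived samples at 25.5 to 28.2 at 24 h and at 72.4 to 76.9 at 48 h. No sample stood apart from its group. Epithelial markers KRT8, KRT18, KRT19, EPCAM and CDH1 were abundant, whereas CDX1 had no counts and the mature enterocyte genes KRT20 and VIL1 stayed below 3 CPM. The summed level of 8 leukocyte markers was 5.54 to 6.13 CPM in control and 11.3 to 12.4 CPM in deprived cells at 24 h, and 11.1 to 11.8 CPM and 23.9 to 26.96 CPM at 48 h. CD68 made up most of that sum, while the defining leukocyte genes PTPRC and CD3E had 0 counts in all 12 samples. The 9 fibroblast markers, almost all COL1A1, summed to 32.5 to 49.6 CPM in control and 15.7 to 22.8 CPM in deprived samples. The 7 endothelial markers, mostly EGFL7, summed to 46.3 to 56.6 CPM and 20.1 to 32.4 CPM. The part of these markers in the results was not tested. Counts are relative to each library, so fewer cells of a kind and less RNA per cell cannot be told apart.

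The deprivation effect was not the same at both times for a large share of genes. By edgeR's quasi-likelihood test with Benjamini-Hochberg adjustment over all genes, 6048 of 16994 genes (35.6%) had an interaction at an adjusted p under 0.05. It was positive, meaning a higher effect at 48 h, in 2787 genes (16.4%) and negative in 3261 (19.2%). Changes of at least 2-fold were more lopsided, with 282 positive and 1043 negative. The median log2 interaction over all genes was -0.01. Across genes, the 24 h and 48 h log2 fold changes had a Pearson correlation of 0.71 and a Spearman correlation of 0.72. These are descriptions over 16994 genes that share the libraries and their scaling.

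Genes with a called interaction fell into kinds by what the deprivation effect did at each time. A rise present at 24 h grew in 1300 genes (7.65%), whose median log2 fold change went from 0.50 to 0.98. It faded in 483 (2.84%), from 0.61 to 0.09, and reversed into a fall in 353 (2.08%), from 0.38 to -0.64. A fall present at 24 h grew in 1409 genes (8.29%), from -0.62 to -1.35, faded in 392 (2.31%), from -0.48 to 0.00, and reversed into a rise in 169 (0.994%), from -0.27 to 0.30. Effects not called at 24 h emerged at 48 h as a rise in 892 genes (5.25%) and as a fall in 992 (5.84%), and 58 genes met none of these descriptions. All 522 genes called in opposite directions at the 2 times also had a called interaction, which opposite calls make close to certain. Of the reversed rises, 193 had an interaction of at least 2-fold, against 23 of the reversed falls.

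**Figure D1:**
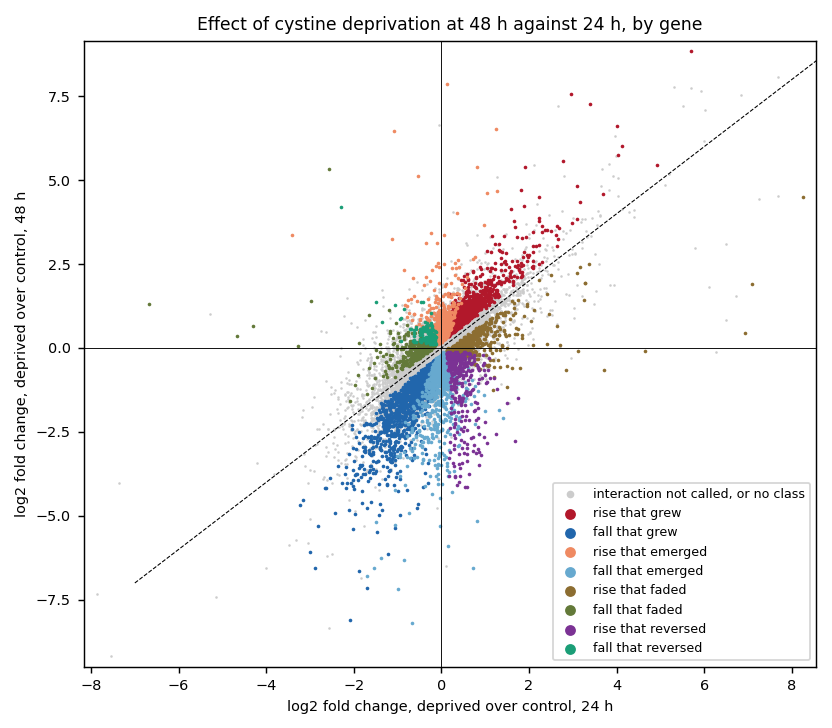
Each point is 1 of 16994 tested genes, with the log2 fold change of deprived over control cells at 24 h on the horizontal axis and at 48 h on the vertical axis, coloured by what the effect did; the dashed line marks equal effects. The 353 reversed rises form a tail in the lower right quadrant that reaches below -4 at 48 h, while the 169 reversed falls stay close to the origin in the upper left.

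An interaction can come from either arm, so the change from 24 h to 48 h was also tested within control and within deprived cells. Of the 6048 genes, 3255 (53.8%) changed with time in deprived cells alone, 1005 (16.6%) in control cells alone and 1103 (18.2%) in both arms in opposite directions. A further 283 changed the same way in both, by different amounts, and 402 in neither. Deprived cells had the larger absolute change in 71.9% of the 6048. The gene lists differed in this. For mitotic genes the median log2 change with time was 0.23 in control and -3.36 in deprived cells, for hypoxia genes 0.68 and 0.19, and for proteasome subunits -0.36 and 0.23, in the same order.

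**Figure D2:**
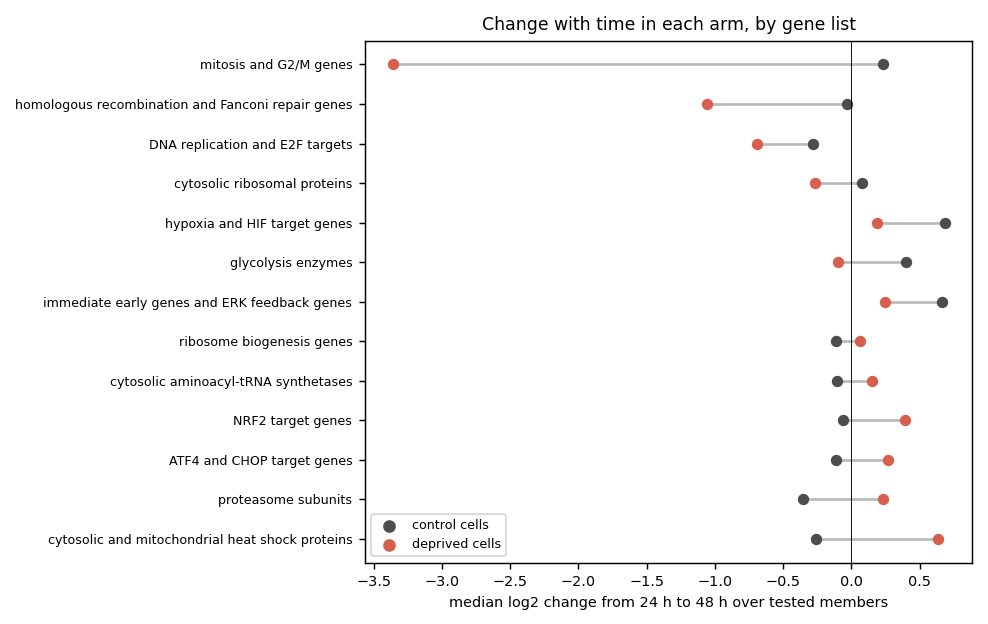
Median log2 change from 24 h to 48 h over the tested members of 13 gene lists, in control cells (grey) and in deprived cells (red), with a line joining the arms. The mitotic list has its change in the deprived arm, at -3.36 against 0.23 in control cells, whereas the hypoxia and glycolysis lists have the larger change in the control arm.

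The clearest reversal was in the mitotic programme. All 41 genes of the mitosis and G2/M list had a lower effect at 48 h than at 24 h, with a median log2 interaction of -3.72 beside -0.01 over all genes and a background of 19.2% of genes with a called negative interaction. At 24 h, 26 members were higher in deprived cells and 3 lower (28.8% and 26.9% over all genes), with a median log2 fold change of 0.31. At 48 h all 41 were lower (34.9% over all genes), with a median of -3.26. So 26 were rises that reversed, 12 were falls that emerged and 3 were falls that grew. In control cells 25 of the 41 rose between the times (12.7% of all genes), and in deprived cells all 41 fell (21.8%).

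Promoters of mitotic genes are known for a cell cycle genes homology region, here searched as TTTGAA, that is bound by the DREAM and B-MYB complexes, and for CCAAT boxes upstream of it, bound by NF-Y. The window from 250 bases before to 50 after the RefSeq start (build GRCh38.p14) was searched on both strands. TTTGAA was found in 61.8% and CCAAT in 82.4% of the 34 mitotic promoters in the table, against 15.4% and 35.7% of all 27305 promoters and 9.60% and 36.7% of the 11380 promoters of tested genes. Both motifs together occurred in 58.8% against 6.08% of all promoters and 4.05% of those of tested genes. Over the 293 reversed rises with a promoter, TTTGAA was in 26.96%, CCAAT in 50.9% and both in 19.5%. A match describes the letters and is not evidence of binding. Below are the 150 bases upstream of the start of 3 of the 6 genes with the most negative interaction, 5′ to 3′ with both motifs in capitals in either orientation (TTCAAA and ATTGG on the opposite strand), because they show the arrangement with and without TTTGAA. CCNB2 lies at chr15:59104996-59105145, plus strand, HMMR at chr5:163460482-163460631, plus strand and KIF20A at chr5:138178962-138179111, plus strand.
CCNB2: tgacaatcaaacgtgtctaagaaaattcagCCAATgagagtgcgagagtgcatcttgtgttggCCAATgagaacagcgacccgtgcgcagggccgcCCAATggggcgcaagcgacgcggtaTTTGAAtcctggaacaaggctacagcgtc
HMMR: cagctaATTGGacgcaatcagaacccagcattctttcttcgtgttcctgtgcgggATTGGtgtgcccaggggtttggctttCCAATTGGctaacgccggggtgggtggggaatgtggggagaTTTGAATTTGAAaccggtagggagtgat
KIF20A: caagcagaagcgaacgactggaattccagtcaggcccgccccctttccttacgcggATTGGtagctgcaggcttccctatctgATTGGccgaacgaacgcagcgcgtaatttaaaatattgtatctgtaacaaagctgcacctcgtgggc
CCNB2 has 3 CCAAT boxes in this stretch and 1 TTTGAA close to the start. HMMR has TTTGAA repeated back to back, and KIF20A has CCAAT boxes and no TTTGAA in these letters.

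CCNB2 (chromosome 15, 59105078 to 59125045; GENCODE 29 on GRCh38, as for all gene positions) encodes cyclin B2, a partner of CDK1 at the entry to mitosis. At 24 h CCNB2 read 84.4, 93.2 and 80.1 CPM in control cells and 121, 106 and 114 CPM in deprived cells. At 48 h the values were 108, 114 and 109 CPM and 6.82, 6.82 and 6.97 CPM. Deprived samples lay above the controls at 24 h and far below them at 48 h, with no overlap at either time. The log2 fold change went from 0.41 ± 0.06 (SE) to -4.01 ± 0.08, an interaction of -4.41 ± 0.10 (adjusted p = 1.37e-16). CCNB1, the other B-type cyclin, went from 0.40 ± 0.06 to -3.46 ± 0.07.

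KIF20A (chromosome 5, 138178719 to 138187715), a mitotic kinesin needed for cytokinesis, had the most negative interaction of the genes considered. Control samples of KIF20A read 124, 127 and 135 CPM at 24 h and 169, 185 and 164 CPM at 48 h. Deprived samples read 127, 119 and 128 CPM and 4.05, 4.31 and 4.83 CPM. The groups overlapped at 24 h and were far apart at 48 h. Its effect of -0.04 ± 0.06 at 24 h was not called (adjusted p = 0.562), so this was an emerged fall, with an interaction of -5.25 ± 0.10 (adjusted p = 2.95e-17). MKI67, a proliferation marker, likewise had -0.09 ± 0.06 at 24 h, not called, and -3.91 ± 0.07 at 48 h.

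The motility receptor and spindle protein HMMR (chromosome 5, 163460203 to 163491945) reversed. The level of HMMR was 82.3, 84.3 and 78.8 CPM in control and 126, 118 and 111 CPM in deprived cells at 24 h. By 48 h it was 108, 107 and 104 CPM in control and 6.91, 6.36 and 4.92 CPM in deprived cells. Deprived samples were all higher than controls at 24 h and all lower at 48 h, and the interaction was -4.66 ± 0.11 (adjusted p = 1.37e-16). CENPA, the centromeric histone H3 variant, had an interaction of -4.73 ± 0.18 and PIMREG, a mitotic regulator, one of -4.44 ± 0.15. CDC20, which activates the anaphase-promoting complex, went from 0.86 ± 0.06 at 24 h to -3.11 ± 0.07 at 48 h.

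A few mitotic genes were already lower at 24 h. CDC25C, the phosphatase that activates CDK1, went from -0.55 ± 0.10 to -4.78 ± 0.14, CENPF, a kinetochore protein, from -0.55 ± 0.08 to -4.64 ± 0.10, and PTTG1, or securin, from -0.42 ± 0.07 to -4.14 ± 0.09. CIT and SPDYA, outside the list, were also among the 5 grown falls with the largest interaction, with -3.72 ± 0.11 and -4.04 ± 0.21. CIT is the citron kinase of cytokinesis, and SPDYA encodes an activator of CDK1 and CDK2. CENPE, CDKN3, ASPM and KIF14 followed KIF20A among the emerged falls, with interactions between -4.06 and -3.96.

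The reversed rises that were largest at both times were partly mitotic and partly not. DHRS2 (chromosome 14, 23630115 to 23645639), a short-chain dehydrogenase/reductase, ranked first by the smaller of its effects at the 2 times. In control cells DHRS2 stood at 11.8, 13.5 and 12.6 CPM at 24 h and at 10.2, 12.9 and 12.4 CPM at 48 h. The deprived samples held 39.8, 40.6 and 39.95 CPM and 2.24, 1.95 and 1.002 CPM. The 24 h deprived samples were about 3 times the controls, the 48 h ones a fraction of them, and the controls overlapped between the times. The log2 fold change went from 1.67 ± 0.12 to -2.77 ± 0.17 (interaction adjusted p = 2.43e-12).

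UBE2C (chromosome 20, 45812576 to 45816957), the E2 enzyme of the anaphase-promoting complex, showed the same course at a higher level. UBE2C measured 68.4, 70.7 and 80.8 CPM in 24 h controls and 149, 149.97 and 154 CPM in 24 h deprived samples. The 48 h samples had 102, 116 and 114 CPM and 14.7, 14.1 and 17.7 CPM. Deprived samples were all higher at 24 h and all lower at 48 h. SKA1, NDC80 and HJURP belong to the kinetochore or centromere. SKA1 went from 1.26 ± 0.07 to -1.23 ± 0.08, NDC80 from 1.003 ± 0.07 to -2.21 ± 0.09 and HJURP from 0.90 ± 0.06 to -3.18 ± 0.07. CKAP2L, a spindle protein, went from 0.97 ± 0.07 to -2.64 ± 0.08.

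Less familiar members were MTFR2, a mitochondrial fission regulator, at 1.11 ± 0.11 and then -0.90 ± 0.13, and MSH5, a meiotic MutS homologue whose reads cannot be told apart from an overlapping read-through gene, at 1.01 ± 0.13 and then -1.03 ± 0.14. The mitosis, replication, repair, histone and tubulin lists together held 40 of the 353 reversed rises (11.3%), and the other reversed rises lay outside these lists. The lists are small, with 41, 43, 28, 18 and 15 of the 16994 genes tested, in that order. In 325 of the 353 the deprived and control samples did not overlap at either time, which is given as a description because the calls at each time chose these genes.

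**Figure D3:**
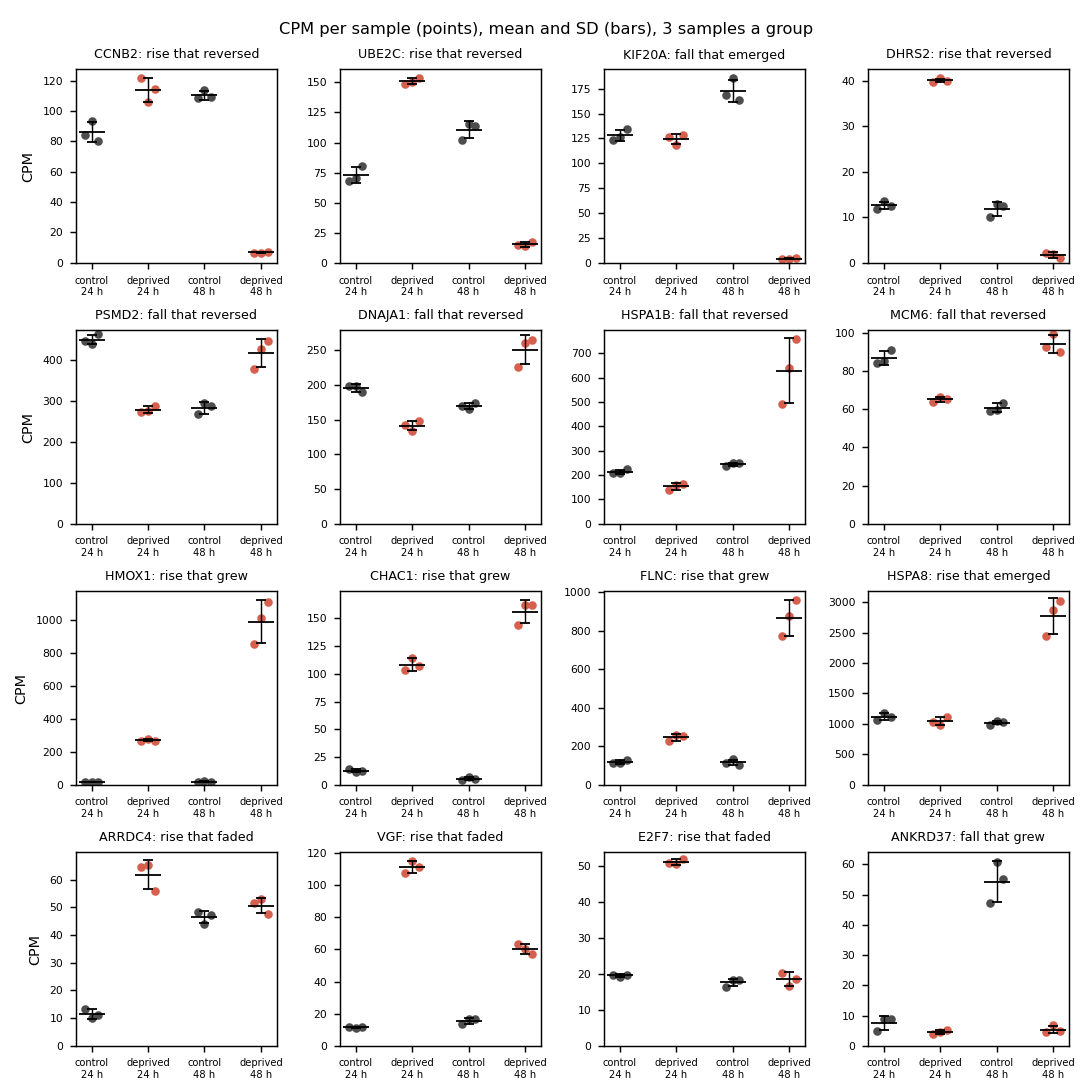
CPM of 16 genes in each of the 12 samples (points), with group means and SDs (bars) over 3 samples, control cells in grey and deprived cells in red, and the behaviour of the deprivation effect above each panel. The top row (CCNB2, UBE2C, KIF20A, DHRS2) is lowest in deprived cells at 48 h, the second row crosses from below to above the controls, and ARRDC4 and ANKRD37 in the bottom row change in the control cells.

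The interactions of DNA repair and replication genes were mostly in the same direction as those of mitotic genes, with smaller medians. Of 28 homologous recombination and Fanconi genes, 21 had a lower effect at 48 h and 0 a higher one. In all genes these shares were 19.2% and 16.4%. The list had a median log2 interaction of -0.88. At 24 h 13 of its genes rose and 3 fell (28.8% and 26.9% of all genes). At 48 h 5 rose and 19 fell (33.5% and 34.9%). FANCI, part of the complex that marks DNA crosslinks, reversed from 0.39 ± 0.05 to -0.76 ± 0.06. FANCD2, its partner, read 50.7, 50.6 and 52.5 CPM in control and 55.4, 55.1 and 55.7 CPM in deprived cells at 24 h, and 52.3, 51.1 and 50.2 CPM and 19.5, 17.7 and 15.9 CPM at 48 h. Its groups did not overlap at 24 h but were too close for a call, and were well apart at 48 h, with a log2 fold change of -1.53 ± 0.07.

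Of 43 DNA replication genes, 28 had a lower and 7 a higher effect at 48 h (19.2% and 16.4% of all genes). The list median was -0.54, and its share of higher members is that of all genes. Its effects were 12 up and 17 down at 24 h (28.8% and 26.9% of all genes), and 9 up and 26 down at 48 h (33.5% and 34.9%). Unlike the mitotic genes, 27 of the 43 fell with time in control cells (10.4% of all genes), and 37 fell in deprived cells (21.8%). The 3 most negative members act in nucleotide supply. RRM2, a ribonucleotide reductase subunit, reversed from 0.71 ± 0.07 to -1.22 ± 0.07, TK1, thymidine kinase, went from -0.89 ± 0.06 to -2.57 ± 0.06, and TYMS, thymidylate synthase, from -0.03 ± 0.06, not called, to -1.70 ± 0.06. The other 3 reversed rises of the list were CDC45, RFC3 and ORC6.

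The 3 reversed falls of the list were MCM4, MCM5 and MCM6, subunits of the replicative helicase. At 24 h MCM6 read 84.2, 84.9 and 90.8 CPM in control cells and 63.7, 66.3 and 65.1 CPM in deprived cells. At 48 h the values were 58.9, 59.6 and 63.4 CPM and 92.6, 99.1 and 89.8 CPM. In MCM6 (chromosome 2, 135839626 to 135876426) the control arm fell and the deprived arm rose with time, with changes of -0.51 ± 0.06 and 0.53 ± 0.06 on the log2 scale, and the deprived samples passed from below to above the controls. MCM4 went from -0.62 to 0.24 and MCM5 from -0.62 to 0.37. The rest of the 7 higher members, named after their values were seen, were MCM3 and the drivers of S phase entry CCNE1, CCNE2 and E2F1. Having 7 of 43 members higher is near the 16.4% of all genes, so no theme is read from them. CCNE2 had an interaction of 1.18, CCNE1 of 0.64, E2F1 of 0.63 and MCM3 of 0.30.

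Of 47 replication-dependent histone genes 18 had enough counts, and 11 of these had a lower and 0 a higher effect at 48 h, with a median of -1.78 that was -1.002 over members with a mean of at least 5 CPM. Among 15 tubulins 6 were lower and 1 higher. For both lists the shares over all genes were 19.2% lower and 16.4% higher. TUBA1C reversed from 0.64 ± 0.07 to -0.18 ± 0.07 and TUBB4B emerged as a fall at -1.18 ± 0.07; tubulin and histone genes are near-identical families whose reads the counting may split.

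**Figure D4:**
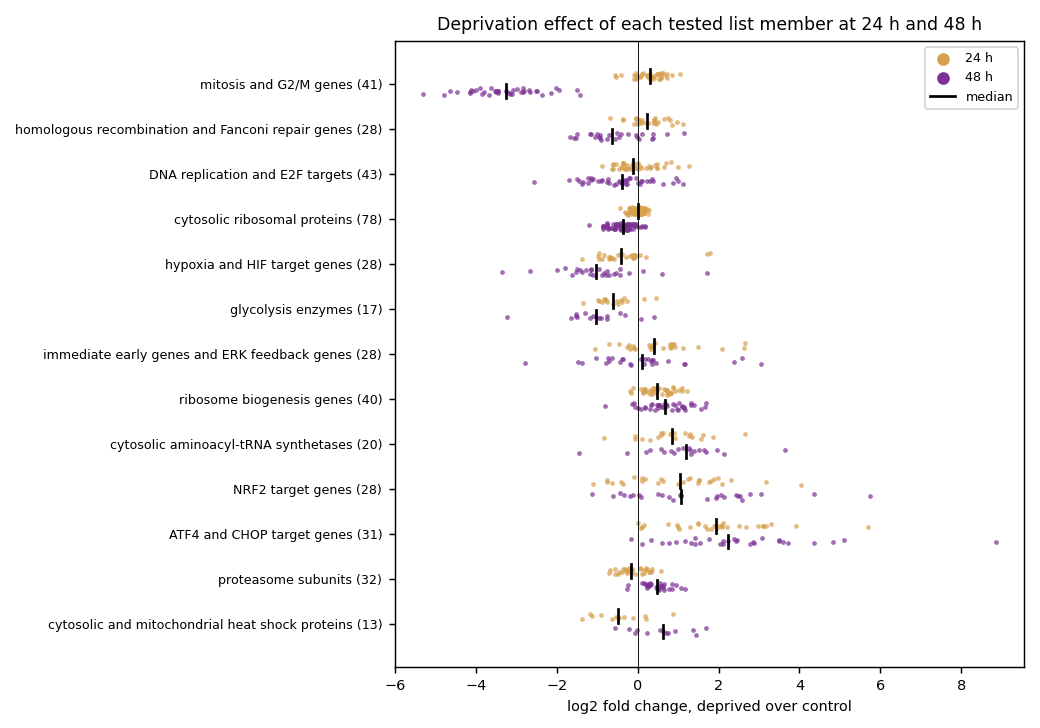
Log2 fold change of deprived over control cells for every tested member of 13 gene lists (number tested in brackets), at 24 h (orange) and 48 h (purple), with medians as black bars. Mitotic genes move from a median of 0.31 to -3.26, and proteasome and heat shock genes from medians below 0 to medians above 0; the single ATF4 member near 9 at 48 h is NUPR1, which had 2 counts over the 3 control samples at 48 h.

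Proteasome subunits and heat shock proteins crossed the other way. The proteasome degrades ubiquitin-tagged proteins, and heat shock proteins are chaperones induced through HSF1. All 31 proteasome members with a called interaction, of 32 tested, had a higher effect at 48 h, against a background of 16.4% of genes. The median log2 fold change went from -0.16 at 24 h to 0.49 at 48 h, with 15 falls that reversed, 10 rises that grew, 4 rises that emerged and 2 falls that faded. In control cells 29 of the 32 fell between the times (10.4% of all genes), and in deprived cells 23 rose (20.7%) and 0 fell.

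PSMD2 (chromosome 3, 184298709 to 184309054), a scaffold subunit of the regulatory particle, had the largest change of the list. Control samples of PSMD2 read 448, 441 and 464 CPM at 24 h and 268, 295 and 289 CPM at 48 h. Deprived samples read 273, 275 and 289 CPM and 379, 427 and 447 CPM. Deprived samples were below all controls at 24 h and above all controls at 48 h, and the deprived level at 24 h was close to the control level at 48 h. The log2 fold change went from -0.69 ± 0.06 to 0.56 ± 0.06 (interaction 1.25 ± 0.08, adjusted p = 7.45e-10). In the arms, the control change was -0.67 ± 0.06 and the deprived change 0.58 ± 0.06. PSMC2 and PSMC4, ATPases of the base, had interactions of 0.80 ± 0.07 and 0.90 ± 0.08, and PSMD1 one of 0.74 ± 0.07. PSMA4 was the member whose interaction was not called (0.23).

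All 13 tested heat shock members had a higher effect at 48 h (16.4% of all genes). Their medians were -0.48 at 24 h and 0.62 at 48 h. At 24 h 9 fell and 2 rose (26.9% and 28.8% over all genes), and at 48 h 9 rose and 2 fell (33.5% and 34.9%). HSF1 binds inverted repeats of GAA, searched as GAANNTTC, a motif added after the values were seen. It was in 38.5% of 13 promoters of the list and in 6.87% of all promoters, or 4.67% of those of tested genes. The 150 bases upstream of HSPA1B (chr6:31827588-31827737, plus strand) and HSPA8 (chr11:123062137-123062286, minus strand) are shown with that motif in capitals, since these genes had the largest interactions among members abundant enough to be named.
HSPA1B: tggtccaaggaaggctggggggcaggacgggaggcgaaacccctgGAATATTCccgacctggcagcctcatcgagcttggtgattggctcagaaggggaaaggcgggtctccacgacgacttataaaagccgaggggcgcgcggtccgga
HSPA8: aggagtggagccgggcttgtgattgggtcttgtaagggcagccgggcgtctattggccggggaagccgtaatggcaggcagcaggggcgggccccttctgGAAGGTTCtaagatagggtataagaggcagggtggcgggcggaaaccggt

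HSPA1B (chromosome 6, 31827735 to 31830255) encodes the inducible HSP70. The level of HSPA1B was 209, 207 and 224 CPM in control and 138, 158 and 165 CPM in deprived cells at 24 h. By 48 h it was 238, 248 and 248 CPM in control and 491, 638 and 758 CPM in deprived cells. Its deprived samples lay below the controls at 24 h and above them at 48 h, with a wider spread at 48 h than in any other group. The log2 fold change went from -0.48 ± 0.10 to 1.36 ± 0.10 (interaction 1.84 ± 0.15, adjusted p = 1.34e-08). The near-identical HSPA1A received almost no counts in any sample, so this value stands for both copies.

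HSPA8 (chromosome 11, 123057489 to 123063230), the constitutive HSC70, had a rise that emerged. In control cells HSPA8 stood at 1069, 1172 and 1120.4 CPM at 24 h and at 989, 1044 and 1026 CPM at 48 h. The deprived samples held 1028, 986 and 1113 CPM and 2443, 2872 and 3013 CPM. The groups overlapped at 24 h, where the effect of -0.10 ± 0.07 was not called, and the 48 h deprived samples were above all 9 others. Its interaction was 1.55 ± 0.09 (adjusted p = 1.94e-10).

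The cochaperone DNAJA1 reversed from -0.47 ± 0.06 to 0.56 ± 0.06 and HSP90AA1, the inducible cytosolic HSP90, from -0.92 ± 0.05 to 0.22 ± 0.05. HSPH1, an HSP110, went from -0.34 ± 0.05 to 0.62 ± 0.05. The mitochondrial cochaperonin HSPE1 and the small heat shock protein HSPB1 were falls that faded, from -1.12 ± 0.06 to -0.22 ± 0.06 and from -1.19 ± 0.07 to -0.55 ± 0.07. Of 25 chaperones and stress genes of the endoplasmic reticulum 8 were higher and 6 lower, where 16.4% and 19.2% of all genes were. HSP90B1, the endoplasmic reticulum HSP90, reversed the other way, from 0.13 ± 0.04 to -0.26 ± 0.04.

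Other reversed falls came from scattered functions. LPIN1 (chromosome 2, 11677595 to 11827409), a phosphatidate phosphatase of glycerolipid synthesis, led them. LPIN1 measured 44.5, 39.8 and 46.9 CPM in 24 h controls and 28.2, 27.01 and 32.6 CPM in 24 h deprived samples. The 48 h samples had 31.7, 32.7 and 29.3 CPM and 48.8, 49.3 and 46.4 CPM. Deprived samples were lower than controls at 24 h and higher at 48 h, without overlap. TRIML2, a p53-inducible gene, went from -0.41 ± 0.11 to 1.37 ± 0.11. The pacemaker channel gene HCN4, the chloride-proton exchanger CLCN4, the apoptotic nuclease DFFB and QRICH2 stayed below 17 CPM in every sample and had interactions of 1.15 ± 0.25, 1.03 ± 0.18, 0.91 ± 0.15 and 0.93 ± 0.18. The proteasome and heat shock lists, with 32 and 13 of the 16994 genes tested, together held 20 of the 169 reversed falls (11.8%).

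Most amino acid response genes were up at 24 h, and many of their rises were larger at 48 h. Of 31 ATF4 and CHOP targets, 28 were up at 24 h and 30 at 48 h (28.8% and 33.5% of all genes). The interaction was called higher in 20 and lower in 3, with a median of 0.55; 18 were rises that grew and 2 rises that emerged. For 28 NRF2 targets the median log2 fold change was 1.05 at 24 h and 1.07 at 48 h, with 19 up at each time and 6 and then 4 down. Their interaction was higher in 16 and lower in 2, with a median of 0.43 that was 0.27 over members with a mean of at least 5 CPM. For 20 cytosolic aminoacyl-tRNA synthetases 10 were higher and 2 lower (median 0.25). Beside these 3 lists, 16.4% of all genes were higher and 19.2% lower.

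SLC7A11 (chromosome 4, 138164097 to 138242349), the cystine-importing subunit, is on both the ATF4 and the NRF2 list. At 24 h SLC7A11 read 71.3, 61.9 and 51.3 CPM in control cells and 551, 572 and 529.6 CPM in deprived cells. At 48 h the values were 37.7, 33.05 and 41.3 CPM and 900.3, 705 and 685 CPM. Deprived samples were above all controls at both times, and the controls were lower at 48 h than at 24 h. The log2 fold change grew from 3.16 ± 0.11 to 4.35 ± 0.12 (interaction 1.19 ± 0.15, adjusted p = 5.87e-06), with a control change of -0.72 ± 0.12 and a deprived change of 0.47 ± 0.10. Its partner SLC3A2 grew from 2.22 ± 0.08 to 3.06 ± 0.08.

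CHAC1 (chromosome 15, 40952962 to 40956519) degrades glutathione and had the largest interaction of the ATF4 list after NUPR1, whose control samples held almost no counts. Control samples of CHAC1 read 14.1, 11.2 and 12.7 CPM at 24 h and 4.26, 7.18 and 5.09 CPM at 48 h. Deprived samples read 103, 114 and 107 CPM and 144, 162 and 162 CPM. The 48 h deprived samples were above the 24 h ones, and the 48 h controls below the 24 h ones. Its log2 fold change went from 3.09 ± 0.10 to 4.83 ± 0.12 (interaction 1.74 ± 0.16, adjusted p = 1.08e-07). SESN2, an inhibitor of mTORC1, grew by 0.89 ± 0.11, PPP1R15A, which directs dephosphorylation of eIF2 alpha, by 0.98 ± 0.10, and SLC7A5, a transporter of large neutral amino acids, by 0.76 ± 0.09.

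Not all of the response grew. TRIB3, a pseudokinase target of ATF4 and CHOP, read 321, 330.4 and 331 CPM in deprived cells at 24 h and 315, 351 and 361 CPM at 48 h, and its interaction of 0.19 ± 0.09 was not called (adjusted p = 0.138). ATF4 itself and ASNS, asparagine synthetase, grew by 0.26 ± 0.09 and 0.37 ± 0.12 (adjusted p = 0.0323 and 0.0211). These calls lay near the threshold and were lost when any 1 of several samples was left out. ATF4 lost its call without control 24 h replicate 1, control 48 h replicate 1, either of deprived 24 h replicates 1 and 2 or either of deprived 48 h replicates 2 and 3 (adjusted p 0.0595 to 0.0809). ASNS lost it without control 24 h replicate 1 or 2, control 48 h replicate 1 or deprived 24 h replicate 2 (0.0525 to 0.0668). The 3 members that faded were DDIT3, DDIT4 and CEBPB. DDIT3, which encodes CHOP and whose 3′ end overlaps MARS1, read 97.6, 95.3 and 93.4 CPM in deprived cells at 24 h and 58.1, 58.6 and 55.1 CPM at 48 h, with controls between 10 and 14 CPM at both times. The fall within deprived cells was called, at -0.74 ± 0.07 (adjusted p = 4.33e-08).

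The ATF4 composite element was searched as TGATGNAA. It was in 37.5% of 16 synthetase promoters and in 6 of 25 promoters of the ATF4 list, against 3.67% of all promoters and 1.71% of those of tested genes. The NRF2 motif was searched as TGACNNNGC. It was in 4 of 20 promoters of the NRF2 list and in 8 of 25 of the ATF4 list. Its background was 13.6% of all promoters and 15.1% of those of tested genes, so nothing is read from the NRF2 share. CACGTG and TGACGT, also among the 7 motifs searched, were in 0 of 20 NRF2-list promoters and in 1 and 2 of 25 ATF4-list promoters. Of 11380 promoters of tested genes, 1138 and 1288 held them. The ASNS promoter (chr7:97872409-97872558, minus strand), a known target of ATF4, is shown with TGATGNAA in capitals.
ASNS: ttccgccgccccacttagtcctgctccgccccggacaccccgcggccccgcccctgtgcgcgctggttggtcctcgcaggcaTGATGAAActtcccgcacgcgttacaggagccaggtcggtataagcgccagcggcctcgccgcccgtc

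Among synthetases, WARS1, for tryptophan, had the largest interaction at 0.99 ± 0.09, with MARS1 at 0.62 ± 0.09 and GARS1 at 0.59 ± 0.08. QARS1, for glutamine, went further down, from -0.84 ± 0.05 to -1.45 ± 0.05.

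HMOX1 (chromosome 22, 35380361 to 35394214), haem oxygenase 1, had the largest interaction of the iron and haem list. The level of HMOX1 was 16.98, 16.6 and 16.2 CPM in control and 269, 279 and 267 CPM in deprived cells at 24 h. By 48 h it was 17.2, 20.6 and 18.03 CPM in control and 855, 1012 and 1110.5 CPM in deprived cells. Controls stayed between 16 and 21 CPM, and every 48 h deprived sample was at least 3 times every 24 h one. The log2 fold change grew from 4.03 ± 0.09 to 5.74 ± 0.09 (interaction 1.70 ± 0.12, adjusted p = 3.32e-09). FTH1, the ferritin heavy chain, grew from 2.09 ± 0.06 to 3.04 ± 0.06. TFRC, the transferrin receptor, read 429, 446 and 437 CPM in control and 540.5, 527 and 540.1 CPM in deprived cells at 24 h, and 249.9, 239.5 and 230.2 CPM and 514, 529 and 532 CPM at 48 h. Its deprived level was about the same at both times, and its interaction of 0.84 ± 0.06 came with a control change of -0.87 ± 0.05. CPOX, a haem synthesis enzyme, was a fall that grew, with -1.28 ± 0.08. In all, 13 of 26 iron and haem genes had a higher and 4 a lower effect at 48 h, against 16.4% and 19.2% of all genes.

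Among glutathione genes, GCLM, the modifier subunit of glutamate-cysteine ligase, grew from 1.99 ± 0.07 to 2.77 ± 0.07. For GCLC, the catalytic subunit, the interaction of -0.19 ± 0.08 was not called (adjusted p = 0.071). MGST1, a membrane glutathione transferase, went from 0.18 ± 0.07 to 1.62 ± 0.07, and GOT1, a transaminase, faded from 1.56 ± 0.07 to 0.85 ± 0.07. The cysteine and glutathione list as a whole had 9 higher and 6 lower of 31, against 16.4% and 19.2% of all genes, so that its share of lower members is that of all genes. It had a median of -0.02 whose sign changed with the scaling.

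Ferroptosis regulators with a called interaction mostly had a higher effect at 48 h. GPX4, which reduces lipid peroxides, was 1 of the 2 lower members, as a fall that grew. In control cells GPX4 stood at 174, 176 and 189 CPM at 24 h and at 167, 195 and 192 CPM at 48 h. The deprived samples held 127, 124 and 132 CPM and 77.6, 86.02 and 86.9 CPM. Deprived samples were below the controls at both times and lowest at 48 h (interaction -0.65 ± 0.09, adjusted p = 1.27e-05). AIFM2, which encodes the suppressor FSP1, was a rise that grew, from 0.95 ± 0.06 to 1.64 ± 0.06. Over the list, 10 of 29 were higher and 2 lower, where 16.4% and 19.2% of all genes were.

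The other rises that grew the most were LCN2, lipocalin 2, at 1.89 ± 0.32, FLNC, filamin C, at 1.84 ± 0.12, and NAV3, neuron navigator 3, at 1.71 ± 0.13. FLNC measured 114, 114 and 131 CPM in 24 h controls and 226, 257 and 254 CPM in 24 h deprived samples. The 48 h samples had 116, 132 and 105 CPM and 769.7, 876 and 957 CPM. Controls of FLNC (chromosome 7, 128830377 to 128859274) overlapped between the times, and its 48 h deprived samples were all above the 24 h ones. METTL7A, a membrane-bound methyltransferase, was a fall that grew from -3.001 ± 0.15 to -6.06 ± 0.22, reaching 0.0880, 0.139 and 0.273 CPM in deprived cells at 48 h.

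Hypoxia and glycolysis genes had a lower effect at 48 h, with much of the change in control cells. Of 28 hypoxia and HIF targets 20 were lower and 0 higher (median -0.64), and of 17 glycolysis enzymes 11 were lower and 0 higher (median -0.37). Of all genes, 19.2% were lower and 16.4% higher. Between the times, 26 hypoxia genes rose in control cells and 10 in deprived cells, and 13 glycolysis genes rose in control and 4 in deprived cells. The shares of all genes that rose were 12.7% in control and 20.7% in deprived cells.

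ANKRD37 (chromosome 4, 185396021 to 185400628), a HIF1 target, had the largest interaction of the named hypoxia genes. At 24 h ANKRD37 read 4.78, 8.88 and 8.72 CPM in control cells and 3.998, 4.71 and 5.27 CPM in deprived cells. At 48 h the values were 47.1, 60.6 and 55.2 CPM and 4.58, 6.73 and 4.78 CPM. Every control sample at 48 h was far above those at 24 h, while the deprived samples overlapped between the times. The control change was 2.87 ± 0.16 and the deprived change 0.19 ± 0.21, not called (adjusted p = 0.496). ADM, adrenomedullin, had control and deprived changes of 1.4996 ± 0.08 and 0.19 ± 0.08, and PGK1, phosphoglycerate kinase, of 0.68 ± 0.07 and -0.01 ± 0.07. In neither was the deprived change called.

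ALDOC, aldolase C, differed, with changes of 1.03 ± 0.12 in control and -0.85 ± 0.13 in deprived cells, both called. CA9, carbonic anhydrase 9, stayed below 3 CPM except in control cells at 48 h (4.60, 6.72 and 7.66 CPM). VEGFA, an angiogenic growth factor, departed from its list. Control samples of VEGFA read 68.2, 74.9 and 79.5 CPM at 24 h and 119, 131 and 114 CPM at 48 h. Deprived samples read 243, 272 and 255 CPM and 417, 381 and 393 CPM. Deprived samples were above the controls at both times and both arms rose, and its interaction of -0.08 ± 0.09 was not called (adjusted p = 0.548). HIF1A was a rise that grew, by 0.36 ± 0.08. Its control change was -0.27 ± 0.05, and its deprived change of 0.09 ± 0.05 was not called.

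Immediate early genes and ERK feedback genes also had more lower than higher interactions, with 16 lower and 3 higher of 28 (19.2% and 16.4% of all genes). They differed from hypoxia genes at 24 h, with 19 up and 6 down (28.8% and 26.9% of all genes). By 48 h 13 were up and 12 down (33.5% and 34.9%). With time, 23 rose in control and 19 in deprived cells (12.7% and 20.7% of all genes). Their medians with time were 0.66 in control and 0.25 in deprived cells. FOS read 10.9, 11.1 and 14.05 CPM in control and 6.83, 7.52 and 7.79 CPM in deprived cells at 24 h, and 37.1, 53.98 and 47.2 CPM and 7.13, 6.36 and 6.38 CPM at 48 h. FOS, 1 of the 3 falls that grew in this list, rose in control cells while its deprived levels overlapped between the times. EGR1, another growth-factor-induced factor, reversed from 0.29 ± 0.08 to -1.03 ± 0.08 although both arms rose.

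Rises that faded did so by different routes. ARRDC4 (chromosome 15, 97960698 to 97973838), an arrestin-domain protein controlled by glucose-sensing MondoA, had the most negative interaction of them. The level of ARRDC4 was 13.4, 10.1 and 11.1 CPM in control and 64.5, 65.3 and 55.9 CPM in deprived cells at 24 h. By 48 h it was 48.4, 44.2 and 47.1 CPM in control and 51.5, 52.99 and 47.6 CPM in deprived cells. The control samples came up to the deprived level, and the groups overlapped at 48 h. Its log2 fold change went from 2.42 ± 0.09 to 0.12 ± 0.08, with changes of 2.01 ± 0.09 in control and -0.29 ± 0.08 in deprived cells.

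VGF, a neuropeptide precursor, and E2F7, an E2F family repressor, faded with falls in deprived cells. In control cells E2F7 stood at 19.9, 19.2 and 19.8 CPM at 24 h and at 16.5, 18.2 and 18.3 CPM at 48 h. The deprived samples held 50.8, 50.7 and 52.2 CPM and 20.4, 16.7 and 18.6 CPM. E2F7 (chromosome 12, 77021247 to 77065580) was higher in every 24 h deprived sample, and at 48 h the groups overlapped. VGF fell from 108, 115 and 111 CPM to 63.2, 59.99 and 57.3 CPM in deprived cells, with controls between 11 and 17 CPM that rose by 0.45 ± 0.09. DDIT4, an mTORC1 inhibitor induced by many stresses, had an interaction of -1.11 ± 0.12 and KLF4, a differentiation factor, of -1.12 ± 0.10, both with called rises in control cells (1.31 ± 0.08 and 1.33 ± 0.07). CEBPD faded from 2.45 ± 0.17 to 1.01 ± 0.16. For ZC3H10 the 24 h control samples were uneven, at 3.26, 0.103 and 0.769 CPM, and the call (adjusted p = 0.0408) was lost with any sample left out (0.0533 to 0.129) other than control 24 h replicate 1 and deprived 24 h replicate 2, and in DESeq2 (0.339).

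Of the falls that faded, CRYZ, a quinone oxidoreductase, had tight groups. CRYZ measured 37.6, 39.6 and 38.6 CPM in 24 h controls and 12.3, 12.4 and 11.9 CPM in 24 h deprived samples. The 48 h samples had 31.1, 30.99 and 30.8 CPM and 21.2, 19.5 and 20.9 CPM. Deprived samples stayed below the controls at both times, and less so at 48 h, with an interaction of 1.06 ± 0.09 (adjusted p = 4.31e-08). PWWP3B had 1.12 ± 0.22, FAM214A 0.89 ± 0.23 and TMEM80 0.89 ± 0.25; all 3 stayed below 15 CPM in every sample.

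Of the lists examined, cytosolic ribosomal proteins held the most emerged falls. Their median log2 fold change was 0.00 at 24 h, with 12 of 78 up and 13 down, and -0.37 at 48 h, with 2 up and 64 down. Over all genes 28.8% were up and 26.9% down at 24 h, and 33.5% and 34.9% at 48 h. The interaction was lower in 61 and higher in 0 (19.2% and 16.4% of all genes). In 41 it was an emerged fall, against 5.84% of all genes. In deprived cells 62 of the 78 fell with time (21.8% of all genes), and in control cells 6 rose and 0 fell (12.7% and 10.4%). RPL41 read 1206, 1274 and 1234 CPM in control and 1333, 1262 and 1299.7 CPM in deprived cells at 24 h, and 1177, 1291 and 1344 CPM and 773, 856 and 842 CPM at 48 h. The groups overlapped at 24 h and separated at 48 h. RPS9 had the largest interaction of the named members, at -0.76 ± 0.09. Many processed pseudogenes resemble these genes, so single values are uncertain.

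Ribosome biogenesis factors went the other way, with 17 higher and 4 lower of 40 (16.4% and 19.2% of all genes). At the 2 times 36 and 34 members were up (medians 0.49 and 0.68), against 28.8% and 33.5% of all genes. POLR1A, the largest subunit of RNA polymerase I, grew from 0.35 ± 0.07 to 1.03 ± 0.07, and PNO1, an assembly factor of the small subunit, from 1.10 ± 0.07 to 1.67 ± 0.07. FBL, the methyltransferase fibrillarin, was an emerged fall at -0.81 ± 0.07.

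Emerged rises besides HSPA8 were CHPF2, DGKG, MAFG and UTP14C. CHPF2, a chondroitin synthesis enzyme, read 21.6, 22.2 and 25.2 CPM in deprived cells at 24 h and 55.7, 61.6 and 64.5 CPM at 48 h, with controls between 21 and 25 CPM at both times. The 24 h groups overlapped and the 48 h groups did not. DGKG, a diacylglycerol kinase, had 1.51 ± 0.17. MAFG, a small MAF partner of NRF2, varied within groups (50.4, 23.8 and 36.4 CPM in deprived cells at 24 h) and had 1.70 ± 0.31. UTP14C had the largest positive interaction of the genes considered, 2.45 ± 0.42, with a control change of -2.73 ± 0.32 and a deprived change of -0.28 ± 0.26 that was not called. It is a retrocopy of UTP14A and overlaps ALG11, so its reads are uncertain.

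How often an interaction was called depended on the level of the gene. With genes split into 4 equal bins by mean CPM, 11.2% were called in the lowest bin, up to 2.78 CPM and 50.8% in the highest, from 52.1 CPM, with a median SE of 0.61 and 0.08 on the log2 scale. Changes in low genes were thus less often detectable at this depth. The labels give no strand setting, and some of the genes described overlap a tested gene of more than 50% of their own level, so that reads may be shared: KIF20A with BRD8, ANKRD37 with UFSP2, HSPE1 with HSPD1 and MAFG with SIRT7 are examples, beside AIFM2, CA9, CDC25C, CENPA, CHPF2, CRYZ, DGKG, FANCI, PNO1, PSMC2, SPDYA, TMEM80, ZC3H10 and BCL2L11.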

How the data were processed

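RNA from 12 samples was sequenced and deposited as 1 table of estimated counts per gene, which the authors made with fastp, HISAT and RSEM on GRCh38, per the submitters' processing notes; versions, annotation release and strand setting are not given in the sources used here. A length column deposited with the counts, another unit, was not used. The protocol in the labels names a normalized value, but the table's values sum to different totals and are estimated counts. Estimated counts were rounded. The 316 rows of the deposited table that name no gene held 0.762% to 1.54% of counts by group and were left out.

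Genes were filtered with edgeR's filterByExpr (minimum count 10, minimum total 15), scaled by TMM and fitted with edgeR 4.0.16 (R 4.3.3, limma 3.58.1) as 4 group means. The quasi-likelihood test was applied to each time, to the interaction and to the time change within each arm, with Benjamini-Hochberg adjustment over 16994 genes and a threshold of 0.05. CPM are TMM-scaled, and SEs are the log2 value over the square root of F. A rise or fall grew, faded, reversed or emerged according to the calls at both times among genes with a called interaction. Simulated counts for 16652 genes had no effect at either time, except in seeded genes changed in deprived cells at 48 h alone. The interaction test recovered 56.1%, 76.9% and 84.4% of genes changed 1.5-, 2- and 4-fold. Of its calls 6.62% were false, a share above the threshold of 0.05. In the data 9451 genes were called at 24 h and 11615 at 48 h, so these rates need not hold there.

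The genes named, from those with a called interaction, a plain symbol, a mean of at least 5 CPM and at least 30 counts in every group, were the 6 with the largest interactions in each direction, the 8 clearest reversals each way, the 5 largest of each other kind and up to 4 per list by p, plus a set named whatever their values. The members and the 34 gene lists and 4 marker lists were chosen with earlier results of these data known, so lists are described by counts and medians. Of 178 such genes, 63 overlap another tested gene and 30 overlap one above 50% of their own CPM; without a stated strand their reads cannot be told apart. Promoter sequences are from RefSeq (GRCh38.p14), where 11380 tested symbols had an entry. Alternatives were RLE, upper-quartile and unscaled library totals, DESeq2 1.42.0, other filters, a replicate block and each sample left out.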

Additional observations from a re-analysis of the deposited data

Results flagged for a closer look

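Genes whose deprivation effect was called with opposite signs at 24 h and 48 h drew attention. A called interaction is part of how they were chosen, so it adds no separate support. There were 353 genes with a rise at 24 h that became a fall at 48 h and 169 with a fall that became a rise.

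Among the reversed rises with the largest effects at both times, the log2 interaction was -4.43 for DHRS2, -4.08 for HJURP, -3.88 for UBE2C, -3.61 for CKAP2L, -3.21 for NDC80, -2.50 for SKA1, -2.05 for MSH5 and -2.01 for MTFR2. HJURP, CKAP2L, NDC80, SKA1 and UBE2C act at the centromere, on the spindle or in the exit from mitosis. DHRS2, MSH5 and MTFR2 are known for other roles.

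Among the reversed falls it was 1.84 for HSPA1B, 1.25 for PSMD2, 1.20 for LPIN1, 1.15 for HCN4, 1.03 for CLCN4, 1.03 for DNAJA1, 0.93 for QRICH2 and 0.91 for DFFB. HSPA1B and DNAJA1 are chaperone genes and PSMD2 a proteasome gene. In 143 of the 169 genes the deprived and control samples did not overlap at either time, and in 26 they did at one time or both. This is a description, since the calls at each time chose these genes.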

How the results depend on the processing

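No setting gave an interaction call opposite to a call reported here. The counts of higher and lower interactions and of 6 of the 8 kinds of behaviour stayed within 1.5 times their values in every alternative. The exceptions came with library totals in place of TMM, with 595 faded falls against 392 and 255 reversed falls against 169. That scaling also moved the share of interactions that were higher from 46.1% to 54.0%, while RLE and upper-quartile scaling and DESeq2 gave 48.2% to 48.6%. Of the 522 reversed genes, 380 were still reversed under upper-quartile scaling, 402 with library totals and 469 in DESeq2.

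With 1 sample left out at a time, higher interactions numbered 2420 to 2814 and lower ones 2895 to 3218. Grown, faded, reversed and emerged rises numbered 1080 to 1354, 376 to 497, 290 to 363 and 763 to 913, and the same falls 1176 to 1366, 305 to 403, 131 to 196 and 884 to 1042. The share with a change in deprived cells alone was 50.7% to 60.2%.

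Same-numbered samples had correlations of deviations from -0.04 to 0.13, with 1 of 18 pairs above 0.1. Of 12 samples, 6 correlated best with their own number. These low values do not settle whether replicate numbers weakly pair the samples. A replicate block gave 2935 higher and 3394 lower interactions, and kept 5982 of the 6048 calls. Over the 178 named genes, 3349 gene-by-setting values kept their call, 27 lost it, 5 gained one and 0 turned sign. The median interaction changed sign between settings for the unfolded protein response, cysteine and glutathione, iron-sulfur, mitochondrially encoded, BCL2 family and leukocyte marker lists. Without a sign change, the NRF2 median of 0.43 ranged from 0.27 to 0.48, the histone median of -1.78 from -1.85 to -1.002 and the interferon median of -0.52 from -0.73 to -0.34. Of the called genes, 47 had 3 or fewer counts in some group.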

Other observations

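Sterol synthesis and uptake genes had negative medians at both times (median log2 fold change -1.01 at 24 h and -0.86 at 48 h) and split in how they went on. Of 25, 7 falls faded and 6 grew (2.31% and 8.29% of all genes). INSIG1, a sterol-sensing brake on SREBP, faded from -1.98 ± 0.07 to -1.09 ± 0.07 and HMGCS1, an early enzyme of the pathway, from -1.12 ± 0.05 to -0.60 ± 0.05. Among 16 fatty acid genes, 6 were higher and 2 lower (16.4% and 19.2% of all genes). SREBF1, which encodes the lipogenic factor SREBP1, reversed from -0.15 ± 0.05 to 0.35 ± 0.05.

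Of 26 interferon-stimulated genes, 13 had a lower effect at 48 h and 0 a higher one, against 16.4% higher and 19.2% lower over all genes. The median interaction was -0.52, and -0.34 without control 48 h replicate 3. The fall of IFI6 grew from -1.44 ± 0.17 to -3.36 ± 0.19, and OAS3, an antiviral oligoadenylate synthetase, from -0.71 ± 0.07 to -1.499 ± 0.07. Of 13 Wnt targets 6 were lower and 2 higher, the latter near the 16.4% of all genes. NOTUM and DKK1, secreted Wnt inhibitors, went from -0.82 ± 0.17 to -3.08 ± 0.19 and from -0.41 ± 0.08 to -2.36 ± 0.08, while CCND1, cyclin D1, grew from 0.76 ± 0.05 to 1.55 ± 0.05.

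CDK inhibitors and G1 cyclins did not move together, with 5 higher and 8 lower of 15 (16.4% and 19.2% of all genes). CDKN1A, or p21, read 196, 198 and 209 CPM in control and 492, 514 and 501 CPM in deprived cells at 24 h, and 133, 158 and 142 CPM and 512, 599 and 626 CPM at 48 h. Its deprived samples were above the controls at both times, and its rise grew by 0.68 ± 0.10 (edgeR adjusted p = 2.24e-05). CDKN1B, or p27, reversed from 0.21 ± 0.06 to -0.47 ± 0.06, and CDKN2C, or p18, fell further, from -0.70 ± 0.16 to -3.27 ± 0.21.

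Of 29 p53 targets 8 were higher and 6 lower, the latter near the 19.2% of all genes. BAX, which permeabilises mitochondria, grew from 0.20 ± 0.08 to 0.74 ± 0.08, whereas DDB2, a repair gene, fell further, from -0.57 ± 0.07 to -1.47 ± 0.07. Among 18 genes of the BCL2 family list 5 were higher and 3 lower (16.4% and 19.2% of all genes). Its share of lower members is near that of all genes. HRK, a BH3-only protein, grew from 0.77 ± 0.14 to 1.93 ± 0.13, and BCL2L11, which encodes BIM, reversed from 0.29 ± 0.06 to -0.64 ± 0.06.

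Autophagy and lysosome genes had 14 higher and 4 lower of 37. SQSTM1, the autophagy receptor p62, grew from 1.48 ± 0.06 to 2.49 ± 0.06, and ATP6V0D1, a subunit of the proton pump that acidifies lysosomes, emerged as a rise at 0.88 ± 0.07. Mitochondrial ribosomal proteins had 22 higher and 8 lower of 72, unlike the cytosolic ones with 0 higher and 61 lower of 78; that difference between the lists was not tested. Nuclear-encoded oxidative phosphorylation genes had 12 higher and 7 lower of 53, mitochondrially encoded genes 2 and 2 of 13, iron-sulfur assembly genes 5 and 2 of 25, keratin and junction genes 3 and 8 of 23, inflammatory genes 4 and 1 of 15, and metallothionein and zinc response genes 2 and 0 of 6. Over all genes 16.4% were higher and 19.2% lower; several of these shares lie near that background, and nothing is read from them.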
